A study of Rattus norvegicus with 12 samples.

Results

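The miR-148 and miR-152 family consists of miR-148a, miR-148b and miR-152, whose 3p arms carry the same seed, the stretch near the 5′ end through which a microRNA pairs with its targets. Members were taken by name, as every listed arm of these 3 hairpins, which gave 6 of the 641 rat miRNAs in the deposited table. Its 3p arms are listed there as rno-miR-148a-3p, rno-miR-148b-3p and rno-miR-152-3p; the rat prefix is left out from here on. Small RNA had been sequenced from aortas of female spontaneously hypertensive rats (SHR), inbred animals in which blood pressure climbs with age. The treatment was EWH, an abbreviation the labels do not expand, in 6 samples and saline (control) in 6 others. Peptides derived from egg white are named in the series title. The sources used here give no age, dose, route or duration of treatment. They also do not tell whether each sample is 1 animal, so p-values cover only the spread among these samples, some of which may be technical.

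A miRNA hairpin is cut into a duplex, and usually the strand from the dominant arm is kept in the Argonaute protein while the partner, the passenger strand, is degraded. In human and mouse cells the 3p arms of this family are known to repress the DNA methyltransferase genes DNMT1 and DNMT3B, and miR-148a-3p is known in liver to repress the LDL receptor and the cholesterol exporter ABCA1. By RefSeq's gene table for the assembly GRCr8, the miR-148b hairpin lies within the span of Copz1 on chromosome 7 and the miR-152 hairpin within that of Copz2 on chromosome 10. These paralogous genes encode zeta subunits of the COPI vesicle coat. The miR-148a hairpin, on chromosome 4, lay within the span of no other gene in that table, and none of the 3 overlapped another miRNA gene.

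The 3p arms are printed first because they show what the family shares and where it differs. Sequences are from RefSeq (GRCr8), found for 5 of the 6 arms, written 5′ to 3′ with bases 2 to 8, the seed, in capitals.
miR-148a-3p: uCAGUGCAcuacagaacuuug
miR-148b-3p: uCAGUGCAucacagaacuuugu
miR-152-3p: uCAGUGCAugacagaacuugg
All 3 carry the seed CAGUGCA, and no other of the 693 rat mature miRNAs in the RefSeq table does. Counted from 1 at the 5′ end over 21 shared positions, miR-148a-3p and miR-148b-3p were identical at 19 and differed by C9U and U10C. MiR-148a-3p and miR-152-3p were identical at 18 and differed by C9U, U10G and U20G, and miR-148b-3p and miR-152-3p were identical at 19 and differed by C10G and U20G. Reads trimmed or mismatched at these positions could have been given to another member, and how the authors treated multiple matches is not given in the sources at hand.

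The 5p arms of miR-148a and miR-152 do not carry that seed and differ from each other in theirs.
miR-148a-5p: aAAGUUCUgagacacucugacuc
miR-152-5p: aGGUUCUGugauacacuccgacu
No other mature miRNA in that table carried either of these seeds. MiR-148b-5p, the arm for which RefSeq gave no mature sequence, could not be compared. The miR-148a-5p seed AAGUUCU also occurs in the miR-148b hairpin printed below, outside its 3p arm. The hairpins of miR-148a and miR-148b follow because they differed widely in the balance of their arms. Arms with a RefSeq mature sequence are in capitals, both for miR-148a and only the 3p arm for miR-148b.
Mir148a: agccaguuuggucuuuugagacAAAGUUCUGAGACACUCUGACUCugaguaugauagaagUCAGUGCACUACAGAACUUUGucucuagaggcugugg
Mir148b: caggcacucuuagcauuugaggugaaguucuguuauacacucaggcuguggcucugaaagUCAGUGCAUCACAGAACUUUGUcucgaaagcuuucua

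The libraries rested on totals of 23887799 to 24772944 reads, with 76.4% to 80.6% of them in listed miRNAs, and values are in rpm, reads scaled to a total of 1000000. The miRNAs listed as smooth muscle markers, miR-143-3p, miR-145-5p, miR-133a-3p and miR-1-3p, were all detected. MiR-133a-3p and miR-1-3p are not particular to smooth muscle, so only miR-143-3p and miR-145-5p speak for the labelled tissue. The 4 listed miRNAs summed to between 331742 and 428494 rpm in EWH and between 346597 and 426128 rpm in control. Nearly all of that was miR-143-3p, with means of 383398 rpm in EWH and 395202 rpm in control. MiR-133a-3p averaged only 4.45 rpm in EWH and 5.13 rpm in control. MiR-1-3p alone of them had a higher mean in EWH, 807 rpm against 394 rpm (limma, Benjamini-Hochberg adjusted p = 0.128). Marker sums of other cell types were far lower, and the 6 neuron and glia markers summed to between 92.2 rpm (EWH 2) and 869 rpm (EWH 4) in EWH and between 58.6 and 151 rpm in control, with miR-137-3p and miR-219a-5p at 0 in some library. Control 1 stood apart from the other 11 libraries. It had the highest sums of the endothelial (12305 rpm, against 3290 to 6913 rpm elsewhere), adipocyte (1366 rpm, against 531 to 857 rpm) and leukocyte markers (295 rpm, against 128 to 243 rpm), and the lowest of the hepatocyte (189 rpm, against 279 to 1465 rpm) and erythrocyte markers (76.3 rpm, against 101 to 360 rpm). In a bulk sample, fewer cells of a type and less RNA per cell cannot be told apart.

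MiR-152-3p was the most abundant member in each of the 12 libraries, with a mean of 669 rpm that ranked 40 among the 641 listed miRNAs. MiR-148b-3p followed at 191 rpm (rank 76), then miR-148a-5p at 56.0 rpm (rank 108) and miR-148a-3p at 52.8 rpm (rank 110). The lowest were miR-152-5p at 5.40 rpm (rank 217) and miR-148b-5p at 3.29 rpm (rank 244). Mature lengths were between 21 and 23 nt where a sequence was at hand, so these levels need no correction for length, although ligation and amplification favour some small RNAs over others. Each neighbour in this order stood above the next in 12 of 12 libraries, except the 2 arms of miR-148a, where miR-148a-5p was higher in 7 of 12 libraries and the arms did not differ beyond their spread.

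**Figure D1:**
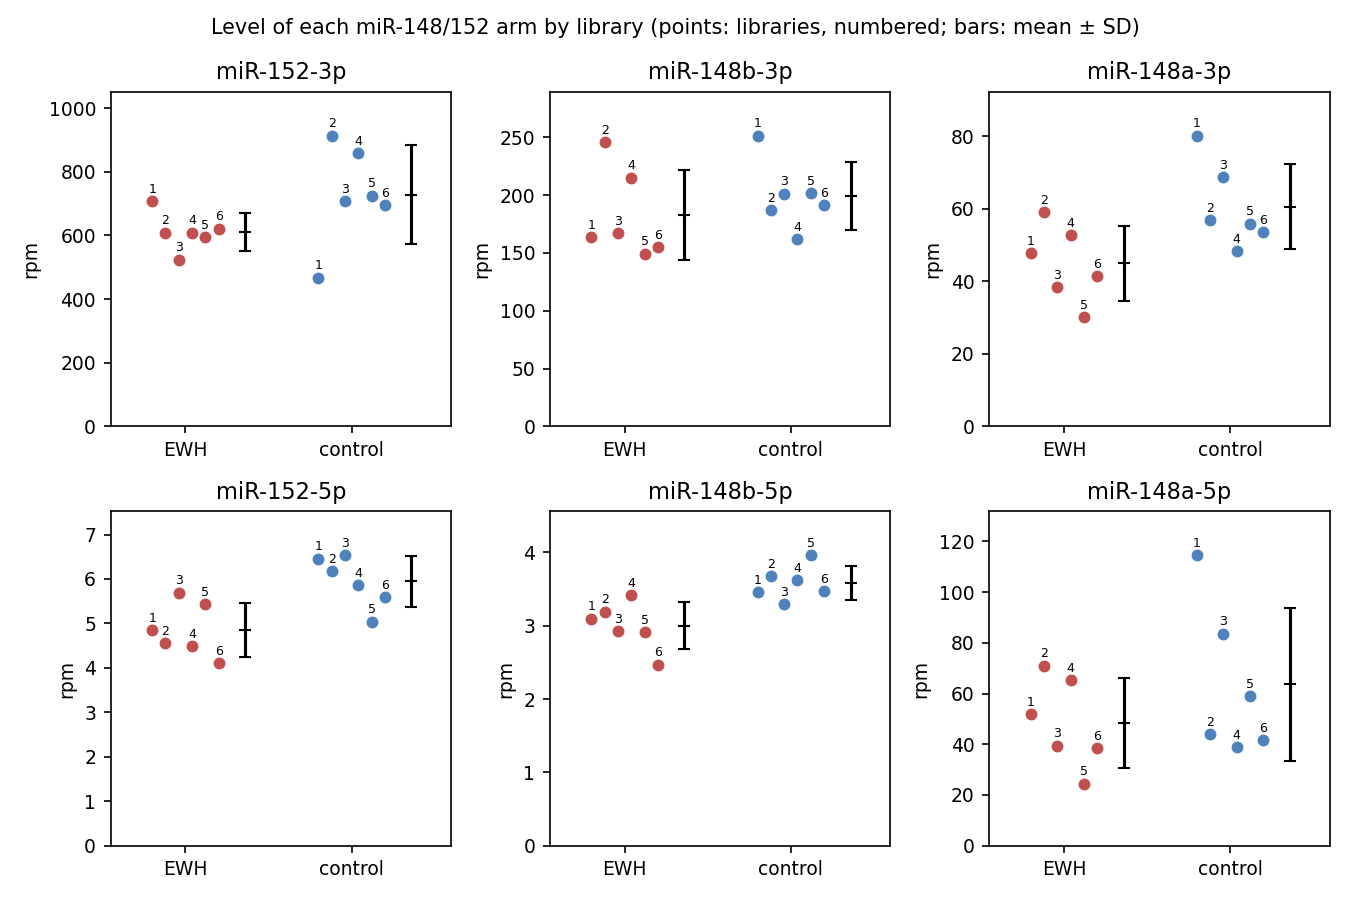
Level in rpm (vertical axes, from 0) of each arm in the 6 EWH and the 6 control libraries. Points are libraries with their replicate number, and bars are the mean ± SD of each group. Control 1 is the highest point for miR-148a-3p, miR-148a-5p and miR-148b-3p and the lowest for miR-152-3p, and the groups overlap in all 6 panels.

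MiR-152-3p, the main carrier of the family seed here, read 524 rpm (EWH 3) at the lowest, 609 rpm at the median and 708 rpm (EWH 1) at the highest in EWH libraries. In control libraries it read 468 rpm (control 1) at the lowest, 716 rpm at the median and 914 rpm (control 2) at the highest. All 6 EWH libraries lay below the control median, but control 1 lay below every EWH library. The mean was 611 ± 58.9 rpm in EWH and 728 ± 155 rpm in control (SD, n = 6 each), a log2 fold change of −0.23 (SE 0.15, on log2(rpm + 1) values; limma with Benjamini-Hochberg adjustment over 303 tested miRNAs, adjusted p = 0.398). It moved to −0.35 without control 1 and to −0.15 without control 2 or after quantile normalization, and passed the threshold of 0.05 in none of these.

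MiR-148b-3p read 149 rpm (EWH 5) at the lowest, 165 rpm at the median and 246 rpm (EWH 2) at the highest in EWH libraries. In control libraries it read 162 rpm (control 4) at the lowest, 196 rpm at the median and 251 rpm (control 1) at the highest. EWH 2 and EWH 4, at 246 and 215 rpm, stood above all controls but control 1, and the other EWH libraries lay at the low end. The means of 183 ± 38.8 rpm in EWH and 199 ± 29.5 rpm in control (SD, n = 6 each) gave the log2 fold change nearest to 0 of the 6 arms, −0.14 (SE 0.15; limma, Benjamini-Hochberg adjusted p = 0.612). It was −0.23 without EWH 2, −0.08 without EWH 5 and −0.07 without control 1.

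MiR-148a-3p, the member known from the regulation of liver cholesterol, read 30.2 rpm (EWH 5) at the lowest, 44.6 rpm at the median and 59.1 rpm (EWH 2) at the highest in EWH libraries. In control libraries it read 48.4 rpm (control 4) at the lowest, 56.4 rpm at the median and 80.2 rpm (control 1) at the highest. The groups overlapped: 4 of 6 EWH libraries lay below the lowest control, and 2 of 6 controls lay above the highest EWH library. Its mean was 44.9 ± 10.4 rpm in EWH and 60.6 ± 11.7 rpm in control (SD, n = 6 each). The log2 fold change of −0.44 (SE 0.18; 95% interval −0.82 to −0.05) was the lowest of the family and the 27th lowest of all tested miRNAs, and its limma adjusted p (Benjamini-Hochberg) was 0.168. Without control 1 the control mean was 56.7 rpm, and without EWH 3 and EWH 4, the libraries highest in neuronal markers, the EWH mean was 44.6 rpm.

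The passenger partner of a hairpin usually leaves few reads, and miR-148a-5p did not follow that pattern. It read 24.5 rpm (EWH 5) at the lowest, 45.6 rpm at the median and 71.0 rpm (EWH 2) at the highest in EWH libraries. In control libraries it read 38.9 rpm (control 4) at the lowest, 51.5 rpm at the median and 115 rpm (control 1) at the highest. Controls 1 and 3 were its highest libraries of all, and the other 4 controls lay within the EWH range. Its mean was 48.4 ± 17.7 rpm in EWH and 63.6 ± 30.0 rpm in control (SD, n = 6 each), at log2 −0.36 (SE 0.32; limma, Benjamini-Hochberg adjusted p = 0.549). That value leaned on single libraries of both groups, at −0.18 without EWH 5 and −0.16 without control 1, where the control mean was 53.4 rpm.

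The minor arms of the other hairpins varied least, with a coefficient of variation over the 12 libraries of 14.8% for miR-152-5p and 12.2% for miR-148b-5p. MiR-152-5p read 4.10 rpm (EWH 6) at the lowest, 4.70 rpm at the median and 5.70 rpm (EWH 3) at the highest in EWH, and 5.04 rpm (control 5), 6.02 rpm and 6.54 rpm (control 3) in control. Of the 6 EWH libraries 4 lay below the lowest control. The mean was 4.86 ± 0.61 rpm in EWH and 5.95 ± 0.57 rpm in control (SD, n = 6 each), at log2 −0.25 (SE 0.11; limma, Benjamini-Hochberg adjusted p = 0.218). MiR-148b-5p read 2.47 rpm (EWH 6) at the lowest, 3.01 rpm at the median and 3.42 rpm (EWH 4) at the highest in EWH, and 3.29 rpm (control 3), 3.55 rpm and 3.97 rpm (control 5) in control. EWH 4 was its only EWH library above any control. The mean was 3.001 ± 0.32 rpm in EWH and 3.58 ± 0.23 rpm in control (SD, n = 6 each), and the log2 fold change was −0.20 (SE 0.10; limma, Benjamini-Hochberg adjusted p = 0.258). These log2 values rest on a pseudocount of 1 rpm that weighs on such low levels, and both were smaller in size with a pseudocount of 5 (−0.15 for miR-152-5p and −0.10 for miR-148b-5p) and larger after quantile normalization (−0.40 for each).

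Depth set how far those 2 arms could be read. MiR-148b-5p had between 59 and 96 reads in a library, and its coefficient of variation was 10.7% in EWH and 6.49% in control, where counting alone gives 11.7% in EWH and 10.7% in control. MiR-152-5p had between 98 and 159 reads, with coefficients of 12.5% in EWH and 9.59% in control, where counting gives 9.19% in EWH and 8.31% in control. For miR-148a-3p, with 727 to 1974 reads, the spread of 23.2% in EWH and 19.3% in control was far above what counting gives, 3.02% in EWH and 2.60% in control.

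Over the family, 0 of 6 arms had a limma adjusted p (Benjamini-Hochberg) under 0.05, where 0 of 303 tested miRNAs (0%) did. MiR-148a-3p alone had an unadjusted limma p under 0.05 with a lower mean in EWH, where 24 of the 303 (7.92%) did. That unadjusted p was 0.0294 by limma, 0.0785 under median-of-ratios scaling and 0.118 by edgeR. Applied to the recovered whole reads, edgeR (quasi-likelihood) called 40 of the 303 (13.2%) and DESeq2 called 63 (20.8%), and no family arm was among either. The edgeR count was 0 without EWH 3, EWH 4, or control 1, 4, 5 or 6 and 27 to 45 without any other library, and no arm of the family was called in any of these fits. By edgeR no arm had an unadjusted p under 0.05 with a lower mean, against 8.25% of the tested. All 6 arms had a lower mean log2 value in EWH, as had 60.1% of all tested miRNAs, with a median log2 fold change of −0.24 over the arms and −0.06 over all. The arms are not separate observations, since each pair comes from 1 hairpin and all share their libraries. No arm had groups that did not overlap, against 1.32% of the tested with all EWH libraries below all controls.

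**Figure D2:**
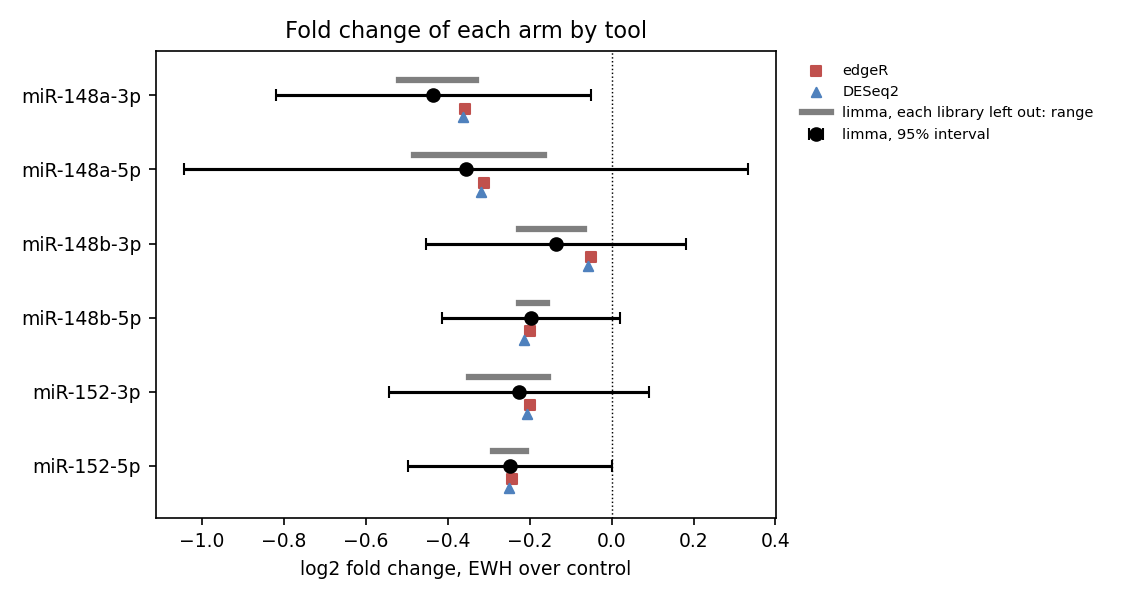
Log2 fold change of EWH over control (horizontal axis) of each arm. Circles with bars are limma on log2(rpm + 1) with 95% intervals, squares edgeR, triangles DESeq2, and grey lines the range of limma values with each library left out in turn. All estimates lie below 0, and only the interval of miR-148a-3p (−0.82 to −0.05), which is not adjusted for the number of miRNAs tested, leaves out 0.

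The levels of the 3 arms with the shared seed were summed in each library. Other listed miRNAs were searched for that seed where RefSeq gave a sequence, as it did for 581 of the 641. The sum was 839 ± 77.6 rpm in EWH and 987 ± 121 rpm in control (SD, n = 6 each), a difference of −15.1% between the means. EWH libraries ran between 730 rpm (EWH 3) and 919 rpm (EWH 1), and control libraries between 799 rpm (control 1) and 1158 rpm (control 2). Of the EWH libraries 2 lay below control 1, so the groups overlapped. All 6 lay below each of the other 5 controls, whose lowest read 939 rpm. How many of all tested miRNAs part in that way without control 1 was not counted. As a score over members the sum was given no test.

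**Figure D3:**
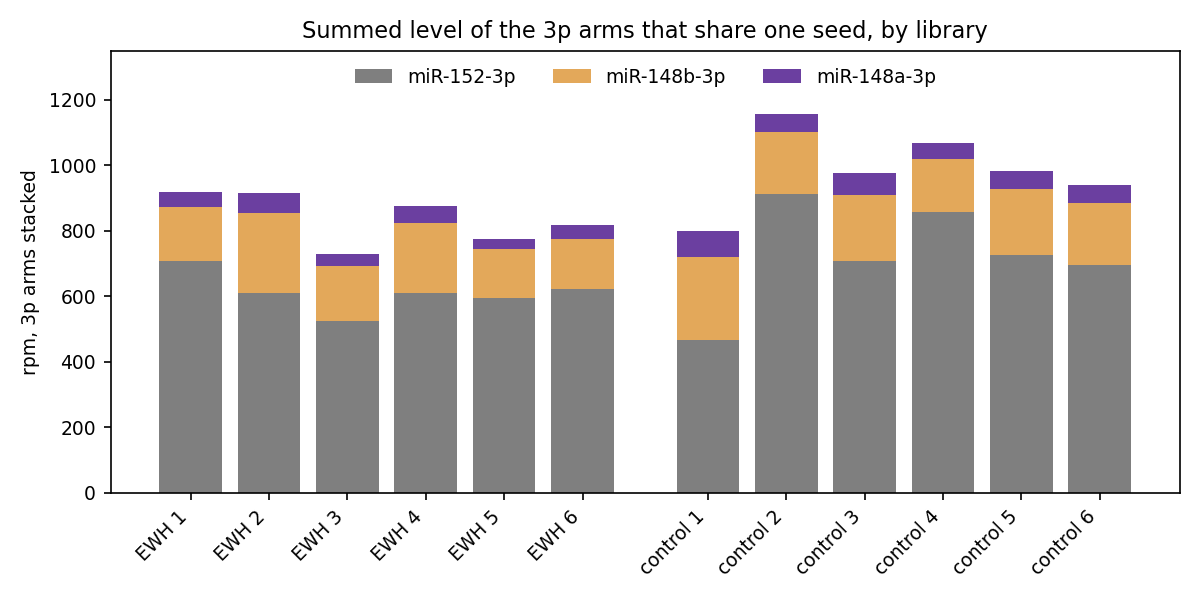
Level in rpm (vertical axis, from 0) of the 3p arms of miR-152, miR-148b and miR-148a, stacked for each of the 6 EWH and the 6 control libraries. MiR-152-3p makes up most of each bar, and control 1 has the lowest sum of the controls and the largest parts of miR-148b-3p and miR-148a-3p.

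Within that sum, with all libraries counted, the groups' mean shares differed for each of the 3 members by less than the SD of the control shares. MiR-152-3p held 73.0% ± 4.33 in EWH and 73.0% ± 7.75 in control (SD, n = 6 each). MiR-148b-3p held 21.7% ± 3.61 in EWH and 20.7% ± 5.79 in control. MiR-148a-3p, the smallest part, held 5.32% ± 0.88 in EWH and 6.32% ± 2.01 in control. In control 1 miR-152-3p held 58.5%, miR-148b-3p 31.5% and miR-148a-3p 10.03%, and without it the control shares averaged 75.9%, 18.6% and 5.57%. For miR-148b-3p the 21.7% in EWH then stood against 18.6% ± 2.68 in control (SD, n = 5). That gap was larger than this control SD but smaller than the EWH SD of 3.61. The ranges overlapped, at 17.8% to 26.9% in EWH and 15.2% to 20.6% in these controls. For miR-152-3p and miR-148a-3p the gap stayed below the control SD. The library that stood apart in this make-up was thus the one highest in endothelial, adipocyte and leukocyte markers, and the part of those cells in it was not tested.

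The proportion of miR-148b-3p to miR-148a-3p, whose seeds are the same and which differ at 2 positions, was higher in most EWH libraries than in any control. There were between 3.42 (EWH 1) and 4.95 (EWH 5) miR-148b-3p reads for each miR-148a-3p read in EWH, and between 2.93 (control 3) and 3.61 (control 5) in control. The ratio averaged 4.12 ± 0.53 in EWH and 3.31 ± 0.26 in control (SD, n = 6 each), and 5 of 6 EWH libraries lay above the highest control. Control 1 did not stand apart here, at 3.14. The proportion was chosen after its values were seen and was given no test. How often other pairs of tested miRNAs part this far was not counted.

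The hairpins differed widely in the balance of their arms. For miR-148a the 5p arm had 0.81 (EWH 5) to 1.24 (EWH 4) reads per 3p read in EWH and 0.77 (control 2) to 1.43 (control 1) in control, with means of 1.05 ± 0.16 in EWH and 1.01 ± 0.27 in control (SD, n = 6 each). The 5p arm led in 4 of 6 EWH and 3 of 6 control libraries. For miR-148b the 5p arm came to only 1.30% to 1.94% of the 3p arm in EWH and 1.37% to 2.24% in control. For miR-152 it came to 0.66% to 1.09% in EWH and 0.68% to 1.38% in control, with the highest share in control 1, where miR-152-3p was lowest.

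Among 154 hairpins with both arms listed and at least 1 tested, the log2((5p + 1)/(3p + 1)) of miR-148a, averaging 0.013 over the 12 libraries, lay closest to 0. The next closest was miR-324 at 0.19, the median distance from 0 was 3.04, and 25 hairpins lay within 1. MiR-148b averaged −5.47 and miR-152 −6.70, while in 94 of the 154 hairpins the 5p arm was the higher. The ranking was made after the values were seen and describes these libraries.

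**Figure D4:**
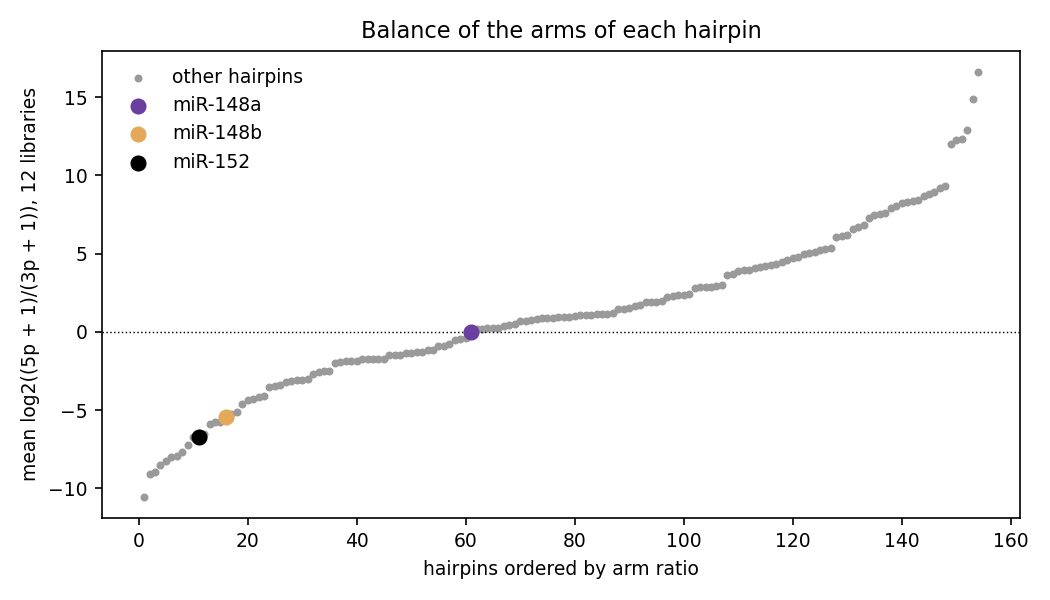
Mean log2((5p + 1)/(3p + 1)) over the 12 libraries (vertical axis) of 154 hairpins in rising order (horizontal axis). Values above 0 mean more 5p reads. MiR-148a lies at 0.013, while miR-148b (−5.47) and miR-152 (−6.70) lie far on the 3p side.

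No difference in arm balance between the groups passed the test. The difference in the log2 arm ratio, EWH minus control, was 0.08 (95% interval −0.30 to 0.46) for miR-148a, −0.06 (−0.37 to 0.25) for miR-148b and −0.022 (−0.42 to 0.38) for miR-152. Limma adjusted p (Benjamini-Hochberg over the 154 hairpins) ran from 0.835 to 0.938. No hairpin of the 154 (0%) passed, and 30 (19.5%) had an unadjusted limma p under 0.05, none of them in the family. Intervals of this width do not show that the arms were balanced alike in both groups.

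The members followed different companions over the libraries. Likeness was measured as the mean absolute difference between log2(rpm + 1) profiles over 12 libraries, after each miRNA's own mean was taken off, among miRNAs averaging at least 10 rpm. The miRNA most like miR-148a-3p, of 182, was miR-148b-3p, at 0.17, then miR-339-3p at 0.17 and miR-30e-5p at 0.18, where miR-148a-3p itself lay on average 0.27 from its own mean. Most like miR-148b-3p were miR-339-3p (0.11), miR-151-3p (0.12) and miR-532-5p (0.14), against 0.20 for its own mean. Its relative miR-148a-3p came 11th.

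MiR-152-3p kept other company, although it shares their seed. Closest to it were miR-199a-3p (0.14) and miR-199a-5p (0.14), arms of a miRNA abundant in mesenchymal cells, and miR-101a-3p (0.15), where its own mean lay at 0.21. MiR-148b-3p, at 0.31, was further from it than a flat line, as was miR-148a-3p at 0.32. MiR-199a-3p averaged 2781 ± 431 rpm in EWH and 3345 ± 629 rpm in control (SD, n = 6 each), at log2 −0.26 (SE 0.15; limma, Benjamini-Hochberg adjusted p = 0.331). Profiles share libraries and depth, so likeness is a description and says nothing of shared control.

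**Figure D5:**
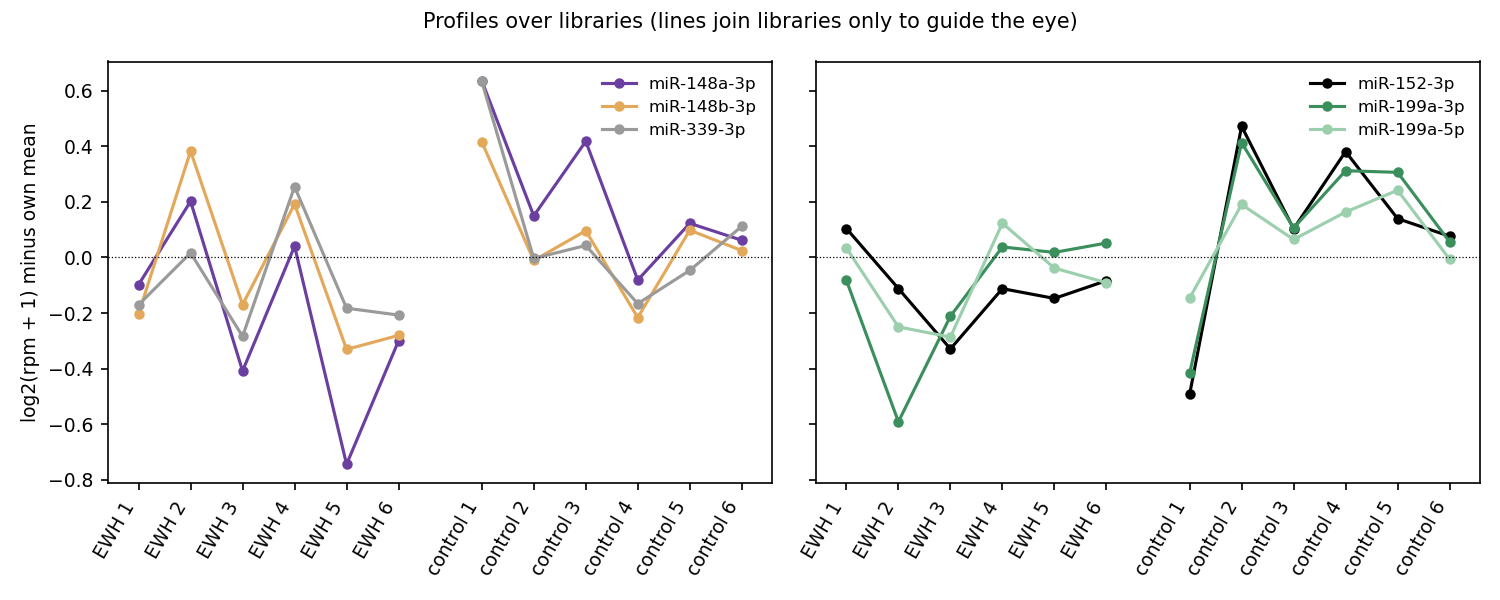
Log2(rpm + 1) minus each miRNA's own mean (vertical axis) in the 6 EWH and the 6 control libraries, for miR-148a-3p, miR-148b-3p and miR-339-3p (left) and for miR-152-3p, miR-199a-3p and miR-199a-5p (right). Lines only guide the eye. Control 1 is high in the left panel and low in the right one.

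Other miRNAs known to repress DNA methyltransferases were given as a list of 12, all of them tested, of which 0 passed limma in either direction. Their median log2 fold change was −0.20, with 10 of 12 at a lower mean in EWH, beside −0.06 and 60.1% over all tested miRNAs. The 12 are not separate observations, since they share their libraries and some are relatives, such as miR-200b-3p and miR-200c-3p. The most abundant, miR-143-3p, the leading smooth muscle miRNA, averaged 383398 ± 36932 rpm in EWH and 395202 ± 31339 rpm in control (SD, n = 6 each). MiR-126a-3p, the endothelial miRNA, averaged 5214 ± 993 rpm in EWH and 5855 ± 3259 rpm in control, where control 1 had the high endothelial sum given above. MiR-140-5p, known from cartilage, averaged 876 ± 114 rpm in EWH and 1035 ± 109 rpm in control (SD, n = 6 each). EdgeR called 1 of the 12, miR-200b-3p, lower in EWH, where it called 6 of all 303 (1.98%) in that direction and 13.2% in either. That call was lost in each of the 6 fits named above in which edgeR called nothing. MiR-200b-3p is also an epithelial marker, and 4 of the 12 are markers of a cell type here.

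Of 15 miRNAs known to repress ABCA1, the LDL receptor or other lipid transport genes, 12 were tested and 0 passed limma, the median log2 fold change being −0.21 and 11 at a lower mean in EWH, beside −0.06 and 60.1% over all tested miRNAs. The most abundant, miR-26a-5p, was the exception, at 107494 ± 8599 rpm in EWH and 102896 ± 8690 rpm in control (SD, n = 6 each). MiR-27b-3p averaged 10947 ± 1040 rpm in EWH and 11834 ± 2000 rpm in control, and miR-27a-3p 6623 ± 745 rpm in EWH and 7879 ± 1076 rpm in control (SD, n = 6 each). Members of this list are not separate observations either, since they share their libraries and some, such as these, are relatives. EdgeR called miR-20a-5p alone of the 12, lower in EWH as were 1.98% of all tested, and lost it in the same 6 fits; 3 of the 15 are cell type markers here. Beside these lists, 5 of 5 leukocyte markers had a lower mean in EWH, as had 60.1% of all tested miRNAs. The leukocyte markers summed to 144 to 227 rpm in EWH and 128 to 295 rpm in control. Other marker lists leaned as well. Lower means in EWH were found for 2 of 2 endothelial and 6 of 8 tested epithelial and endocrine pancreas markers. The endothelial markers are both arms of miR-126a, and control 1 weighs on their control mean. Their sum was 12305 rpm in control 1, 3290 to 5472 rpm in the other controls and 4264 to 6913 rpm in EWH. Higher means were found for 3 of 3 tested neuron and glia markers. The part of any of these cells in the family's levels was not tested.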

How the data were processed

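Per the labels' protocols, Trizol RNA was ligated to adaptors at both ends, amplified and size-selected for inserts of 15 to 35 nt. The build was rn6, per the submitters' processing notes; aligner, counter and annotation are not given in the sources at hand. Deposited by the authors were reads-per-million (RPM) values, under a name for TPM; dividing each library by its smallest step gave whole reads for 100% of values within 0.01 read. No molecular identifiers are stated, so counting errors cover counting only.

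Groups came from sample titles. MiRNAs that reached 1 rpm in 6 or more of the 12 libraries (303 of 641, all 6 arms of the family among them) were compared as log2(rpm + 1) with limma 3.58.1 (trend) in R 4.3.3, two-sided, adjusted by Benjamini-Hochberg, threshold 0.05; a fold change on that scale understates that of low miRNAs. Arm ratios were compared with limma. Recovered reads were tested with edgeR 4.0.16 (quasi-likelihood) and DESeq2 1.42.0. The procedures were tested on simulated counts. Figures used Python 3.11.15 and matplotlib 3.10.9. The members, lists and tests were chosen with earlier results of these data known. Named were all arms, the 3 most similar miRNAs averaging at least 10 rpm per 3p arm, and the 3 most abundant tested members of each list. None of the 30 within-group pairs of libraries was alike to within counting error (chi-square divided by its degrees of freedom, 119 to 3184).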

Additional observations from a re-analysis of the deposited data

Results flagged for a closer look

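In control 1, miR-148b-3p held 31.5% of the summed 3p reads of the family, apart from the other controls, whose highest share was 20.6%. In the same library miR-152-3p held 58.5%, where the next lowest control share was 72.4%. The gap to the nearest control, divided by the range of the group, exceeded Dixon's 95% critical value for 6 samples (0.667 for the first and 0.636 for the second share). Shares of 1 sum move against each other, so both values describe the same departure. Such a gap is passed by chance in about 5% of groups, and 26 groups of values were examined.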

How the results depend on the processing

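Over 142 repeats of the arms' fold changes under the alternatives, 142 lay below 0 and 0 passed the threshold. These are not separate checks, since all repeats share most of their libraries. A changed filter, limma without trend, robust limma and the replicate block also leave the fold change itself as it was. The smallest limma adjusted p (Benjamini-Hochberg) was 0.0888, for miR-148a-3p without EWH 2. The 2 minor arms miss the filter at 10 rpm and had no value there. With each library left out, log2 fold changes ran from −0.52 to −0.33 for miR-148a-3p, −0.48 to −0.16 for miR-148a-5p, −0.23 to −0.07 for miR-148b-3p, −0.23 to −0.16 for miR-148b-5p, −0.35 to −0.15 for miR-152-3p and −0.29 to −0.21 for miR-152-5p. The log2 ratio of the summed 3p arms, −0.24, ran from −0.29 to −0.19. Of all tested miRNAs limma called 0, with 70 at an unadjusted p under 0.05. The count was 8 after quantile normalization, 1 without EWH 3 and EWH 4 together, 0 to 24 with a library left out (24 without EWH 2), 40 by edgeR (34 higher, 6 lower) and 63 by DESeq2. The edgeR count ran from 0 to 45 with a library left out, a check added after seeing the data; the cause was not tested.

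No arm ratio was called, 2 were at a pseudocount of 0.1, and 0 to 9 with a library left out (9 without EWH 2). With a pseudocount of 5 the difference changed sign to 0.032 for miR-148b and 0.073 for miR-152. With a library left out it ran from −0.14 to 0.015 for miR-148b and from −0.11 to 0.12 for miR-152 (0.12 without control 1), and from 0.012 to 0.19 for miR-148a. Equal replicate numbers showed no steady likeness between the groups. Deviations of equal numbers correlated at −0.50 to 0.31, above 0.1 for 3 of 6 numbers. Of the EWH libraries, 1 of 6 correlated best with its own number. So few values cannot exclude a pairing, and the labels state none. The replicate block gave 0 calls, with the arms' fold changes at −0.44 to −0.14 and adjusted p from 0.264 to 0.709 (limma, Benjamini-Hochberg), and 0 arm ratios called. Low reads limit the 5p arms of miR-148b and miR-152.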
